A study of Mus musculus with 4 samples.

Results

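The 10 genes described here are ligands, extracellular modulators, inhibitory Smads and Id targets of the bone morphogenetic protein (BMP) pathway. They are Bmp2, Bmp4, Bmp7, Bmper, Nog, Smad6, Smad7, Id1, Id2 and Id3, chosen by name from 32289 measured genes, and all 10 were found. They were followed in inner ear organoids, mouse embryonic stem cell aggregates grown so that they form inner ear tissue. The stem cells carried a nuclear GFP reporter of Atoh1, the helix-loop-helix factor needed to make hair cells. RNA of single cells was counted in 4 droplet libraries, 1 per group, from day 16, day 20 and day 21, the last sorted into cells of high GFP signal (GFP high) and of low GFP signal (GFP low). All groups share this line, labelled Atoh1-nGFP-ESC, and no group differs from another in genotype or in a stated treatment. The labels state a GFP level for the day 21 libraries alone, and the sort used at days 16 and 20 is not given in them.

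BMPs are secreted signals of the TGF-beta family. They bind pairs of type I and type II receptors, which phosphorylate Smad1, Smad5 and Smad9, and these enter the nucleus with Smad4 and switch on targets such as the Id genes. Id proteins bind the E proteins that helix-loop-helix factors such as Atoh1 need as partners, and so hold these factors back. In the developing inner ear BMP signals take part in patterning the otic vesicle and its sensory regions.

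The day 16, day 20, GFP high and GFP low libraries kept 3376, 4348, 3435 and 3686 cells, with median depths of 15248.5, 8833.5, 28865 and 22213.5 UMIs (molecules counted) per cell. Barcodes shared between libraries numbered 1 to 8 for each pair. Levels are given in CPM: the UMIs of a gene, summed over a class, as a share of all UMIs of that class and scaled by the usual constant. Each group is 1 library, so differences have no replicate check and no test across samples was possible. Every 95% interval covers counting error only. A gene was called higher or lower by size alone: a CPM ratio of 2 or more either way, an interval that excludes 1 and at least 10 CPM on either side. Of 26 clusters, made without the genes of the BMP list, 4 were hair-cell-like, 5 mesenchyme-like, 7 neuron-like and 2 rich in Ccer2. Fewer expressing cells and less RNA per cell cannot be told apart in a summed level.

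Hair-cell-like cells, named from markers of the mechanosensory cells of the ear, numbered 189 (day 16), 149 (day 20), 2228 (GFP high) and 824 (GFP low). Their 16 listed hair cell markers summed to 7514 CPM in GFP high and 6318 CPM in GFP low, against 1023 and 947 CPM in the supporting-cell-like cells of the same libraries. Supporting-cell-like cells, named from genes of the cells that surround hair cells, numbered 24 (day 16), 17 (day 20), 256 (GFP high) and 579 (GFP low). Their 12 listed markers summed to 4443 CPM in GFP high and 3953 CPM in GFP low, against 543 and 388 CPM in hair-cell-like cells. Mesenchyme-like cells numbered 943 (day 16), 2057 (day 20), 52 (GFP high) and 118 (GFP low). Class names rest on markers alone and are looser than a cell type.

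The promoter of Bmp4 is shown because, of the windows that could be read, it alone held several E-box letters, the kind of site that helix-loop-helix factors bind. Bmp4 (ENSMUSG00000021835) is a protein-coding gene on GRCm38 chromosome 14, 46383520 to 46390669, minus strand. The 250 bases before its start (chr14:46390670-46390919, minus strand, RefSeq, GRCm38.p6) are 63.2% G or C. Capitals mark the 3 matches to CANNTG, searched on both strands.
Bmp4 promoter: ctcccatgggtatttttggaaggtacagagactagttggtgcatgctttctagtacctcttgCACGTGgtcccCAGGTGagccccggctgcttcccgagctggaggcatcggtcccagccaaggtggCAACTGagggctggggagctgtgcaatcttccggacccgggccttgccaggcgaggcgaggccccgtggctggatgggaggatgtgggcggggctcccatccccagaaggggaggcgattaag
CANNTG occurred in 66.2% of 32851 windows of the same length, so its presence is common. The window held no GGCGCC (9.59% of windows), no CAGAC (42.2%) and no CAGCTG (13%), the last being a form of CANNTG. The windows of Smad6 and Bmper held none of the 4 motifs. That of Id2 held 1 GGCGCC and 1 CAGCTG, and that of Id3 held 2 CAGAC. Those 2 windows begin from a start that differs from the GENCODE M21 one, and were not read further.

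The levels of the 10 genes differed widely between the cell classes. At day 21, hair-cell-like cells held the ligand Bmp2, the ligand Bmp7 and the inhibitory Smad7, and less Id RNA than supporting-cell-like cells. Supporting-cell-like cells held the highest Id1 levels of the named classes, and Bmp7. Mesenchyme-like cells held most Bmp4 and Bmper RNA at days 16 and 20, with Id2 and Id3. Of the 3 Id genes, neuron-like cells were rich in Id2 alone, and Ccer2-rich cells had neither Bmper nor more than 1 Nog UMI in any library.

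**Figure D1:**
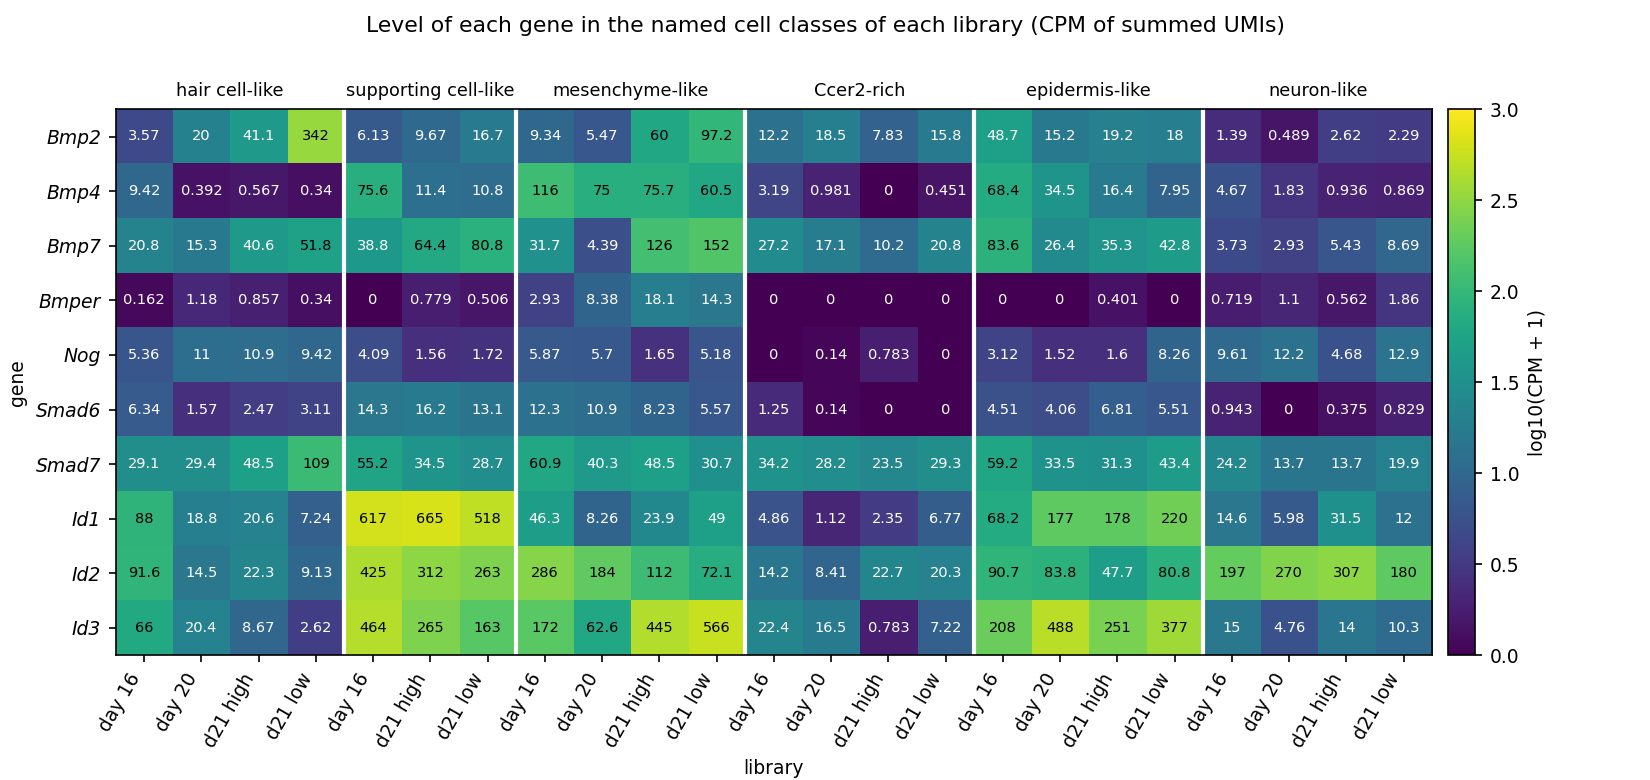
Heat map of the level of each of the 10 genes (rows) in each cell class and library (columns); numbers give CPM and colours log10(CPM + 1). Id1 stands out in supporting-cell-like cells (665 CPM in GFP high and 518 CPM in GFP low), Bmp2 in hair-cell-like cells of GFP low (342 CPM) and Bmp4 in mesenchyme-like cells of day 16 (116 CPM).

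Over the 58 profiles of a cluster in a library with 50 cells or more, the members spanned very different ranges. Id2 ran from 0.719 to 1036 CPM with a median of 97.9 CPM, and Smad7 from 6.84 to 155 CPM with a median of 28.8 CPM. Smad7 was thus detected in every profile. Bmp2 reached 20 CPM in 11 profiles, with a median of 4.99 CPM and a highest value of 709 CPM. Bmp4 reached 20 CPM in 16, with a median of 2.72 CPM and a highest value of 148 CPM. Smad6 never passed 16.2 CPM and Bmper never passed 37.5 CPM.

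In both day 21 libraries, hair-cell-like cells held far less Id1, Id2, Id3, Bmp4 and Smad6 RNA than supporting-cell-like cells and more Bmp2. Nog was also called higher in hair-cell-like cells of GFP high, and Smad7 in those of GFP low. Of 9 members tested in GFP high, 2 were higher and 5 lower. Over all 10180 genes tested there, 33% were called, 17.7% higher and 15.3% lower. In GFP low 2 of 8 members were higher and 5 lower, against 37.2% of all genes, 20.1% higher and 17.1% lower. The median log2 ratio of the tested members was -2.31 in GFP high and -2.46 in GFP low, beside 0.08 for all genes in both libraries. Both classes of a library come from the same sample, so each comparison is of classes within it.

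Bmp2 (ENSMUSG00000027358, chromosome 2, 133552159 to 133562885, plus strand) encodes a ligand that in mouse is needed to form the semicircular canals. In GFP high it stood at 41.1 CPM (39.6 to 42.7) in hair-cell-like cells, against 9.67 CPM (7.41 to 12.4) in supporting-cell-like cells, a ratio of 4.26 (3.31 to 5.57). In GFP low the levels were 342 CPM (334 to 350) and 16.7 CPM (14.2 to 19.4), a ratio of 20.5 (17.6 to 24.1). The intervals of the classes do not overlap in either library. The supporting-cell-like level of GFP high came from few cells: 10 cells held 96.8% of the UMIs, and the other cells stood at 0.330 CPM. In GFP low 10 cells held 37.6% and the others stood at 10.8 CPM. Without the hair cell cluster led by Kcna10, an alternative added after seeing the data, the ratios were 2.002 in GFP high and 3.91 in GFP low. With the genes of the BMP list kept in the clustering the GFP high ratio was 1.93, and with cells of 500 genes or more it was 1.75, so that this call was lost.

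Bmp7 (ENSMUSG00000008999, chromosome 2, 172868012 to 172940321, minus strand), a ligand that can pair with Bmp2 or Bmp4, had similar levels in both classes. It stood at 40.6 CPM in hair-cell-like and 64.4 CPM in supporting-cell-like cells of GFP high, a ratio of 0.631 (0.568 to 0.701). In GFP low it stood at 51.8 and 80.8 CPM, a ratio of 0.641 (0.584 to 0.703). The intervals exclude 1 but the ratios lie within the limit of 2, and Bmp7 was called in neither library. Without the Kcna10 cluster the GFP low ratio was 0.467, and Bmp7 was then called lower.

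Bmp4, a ligand that marks parts of the developing otic vesicle, was close to absent from hair-cell-like cells at day 21. It stood at 0.567 CPM (0.403 to 0.775) in hair-cell-like and 11.4 CPM (8.92 to 14.3) in supporting-cell-like cells of GFP high, a ratio of 0.0498 (0.0329 to 0.0744). In GFP low it stood at 0.340 CPM, from 7 UMIs, and 10.8 CPM, a ratio of 0.0314 (0.0123 to 0.0670). At day 16 hair-cell-like cells had 9.42 CPM (7.15 to 12.2), from 58 UMIs, and the 24 supporting-cell-like cells had 75.6 CPM (53.2 to 104).

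Among the modulators, Nog (ENSMUSG00000048616, chromosome 11, 89300638 to 89302332, minus strand) encodes noggin, which binds BMPs outside the cell and keeps them from their receptors. It stood at 10.9 CPM (10.1 to 11.7) in hair-cell-like and 1.56 CPM (0.748 to 2.87) in supporting-cell-like cells of GFP high, a ratio of 6.96 (3.76 to 14.6). In GFP low the levels were 9.42 and 1.72 CPM with a ratio of 5.48 (3.34 to 9.60), under the 10 CPM minimum. Without the Kcna10 cluster the GFP low ratio was 7.04 and passed. After thinning to 3000 UMIs per cell, 2.80% of hair-cell-like cells of GFP high (2.15 to 3.57%) and 2.60% of those of GFP low had a Nog UMI, against 0% (upper bound 1.45%) and 0.531% of supporting-cell-like cells. Bmper (ENSMUSG00000031963, chromosome 9, 23223076 to 23485200, plus strand), a secreted BMP-binding protein that can block or aid signalling, had 0.857 and 0.779 CPM in these classes of GFP high and was not tested.

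The inhibitory Smads, which BMP signals induce and which then dampen the pathway, went different ways. Smad6 (ENSMUSG00000036867, chromosome 9, 63953076 to 64022059, minus strand), the more BMP-selective inhibitor, stood at 2.47 CPM in hair-cell-like and 16.2 CPM in supporting-cell-like cells of GFP high, a ratio of 0.152 (0.119 to 0.196). In GFP low it stood at 3.11 and 13.1 CPM, a ratio of 0.236 (0.172 to 0.321). Smad7 (ENSMUSG00000025880, chromosome 18, 75367529 to 75395935, plus strand), which also blocks TGF-beta and activin signals, was not lower in hair-cell-like cells. Its levels were 48.5 and 34.5 CPM in GFP high, a ratio of 1.41 (1.23 to 1.62), and 109 and 28.7 CPM in GFP low, a ratio of 3.79 (3.35 to 4.30).

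The 3 Id genes had the lowest ratios of the tested members together with Bmp4. Id1 (ENSMUSG00000042745, chromosome 2, 152736251 to 152737410, plus strand) stood at 20.6 CPM (19.5 to 21.7) in hair-cell-like and 665 CPM (645 to 685) in supporting-cell-like cells of GFP high, a ratio of 0.0310 (0.0291 to 0.0329). In GFP low it stood at 7.24 CPM (6.12 to 8.5) and 518 CPM (504 to 532), a ratio of 0.0140 (0.0118 to 0.0165). Without the 10 cells richest in it, Id1 was still at 548 CPM in GFP high and 464 CPM in GFP low in supporting-cell-like cells. Id3 (ENSMUSG00000007872, chromosome 4, 136143497 to 136145755, plus strand) had 8.67 against 265 CPM in GFP high, a ratio of 0.0327, and 2.62 against 163 CPM in GFP low, a ratio of 0.0161. Id2 (ENSMUSG00000020644, chromosome 12, 25093799 to 25097140, minus strand) had 22.3 against 312 CPM, a ratio of 0.0715, and 9.13 against 263 CPM, a ratio of 0.0348. The intervals of the classes do not overlap for any Id gene in either library.

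At an equal 3000 UMIs per cell, 4.38% of hair-cell-like and 59.1% of supporting-cell-like cells of GFP high had an Id1 UMI, and 1.48% and 49.4% did in GFP low. Neuron-like cells had 5.33% (2.79 to 9.13%) in GFP high and 2.20% in GFP low, and Ccer2-rich cells 1.56% (0.0396 to 8.40%) and 1.42%. No class known to lack Id1 was at hand, so the level that free RNA gives was not measured. Before thinning the shares were 19.5 and 82.4% in GFP high, at median depths of 29910 and 20610 UMIs in hair-cell-like and supporting-cell-like cells.

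Other measures moved with these differences. The 14 listed dissociation stress genes summed to 2143 CPM in hair-cell-like and 13860 CPM in supporting-cell-like cells of GFP high, and to 2231 and 13010 CPM in GFP low. All 14 reached 10 CPM in supporting-cell-like cells. The median mitochondrial share was 6.34% and 3.28% in GFP high, and 7.65% and 1.79% in GFP low. Their part in the result was not tested.

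**Figure D2:**
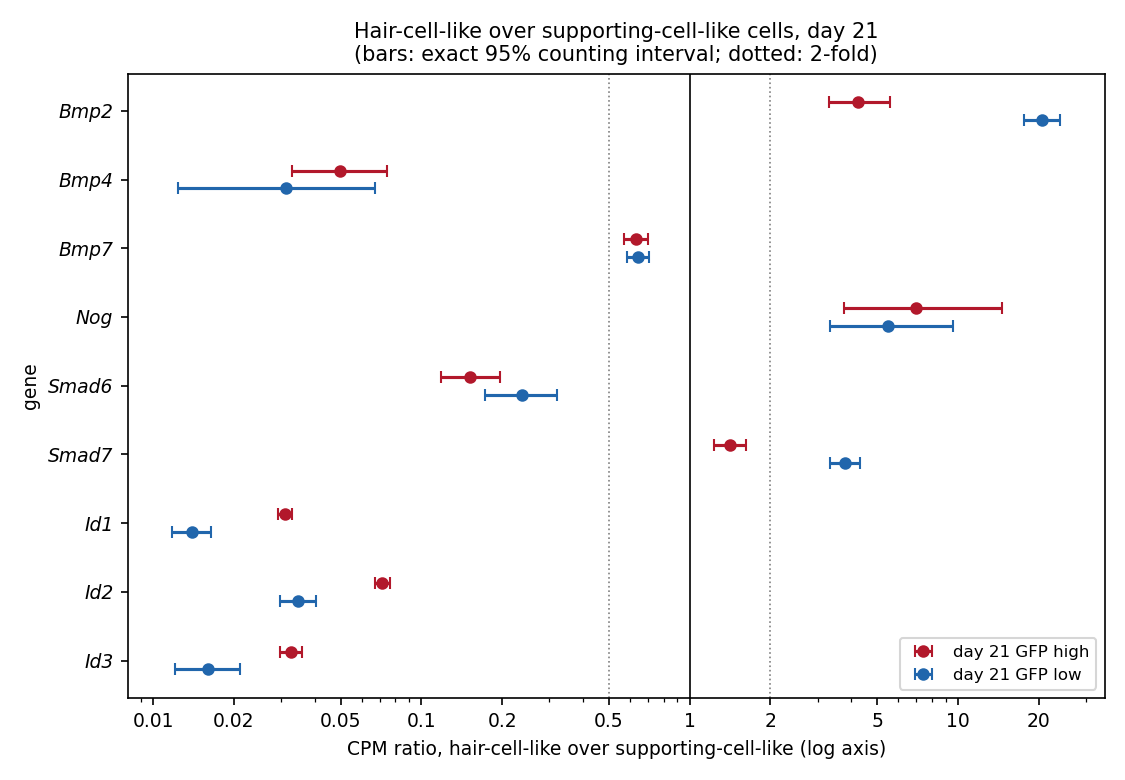
Ratio of the level in hair-cell-like cells to that in supporting-cell-like cells (log axis) for the 9 genes other than Bmper, in GFP high and GFP low, with 95% counting intervals as bars and dotted lines at a ratio of 2 either way. Id1, Id2, Id3, Bmp4 and Smad6 lie below 1 in both libraries and Bmp2 lies above 1 in both, at 4.26 in GFP high and 20.5 in GFP low.

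Cells that shared the markers of both classes formed a cluster of their own, with 158 cells from GFP high and 8 from GFP low. In GFP high it held Id1 at 232 CPM, Id2 at 143 CPM, Id3 at 142 CPM and Bmp7 at 51.4 CPM. Its Id levels lay between those of the classes. Its median depth there was 50140 UMIs, against 29910 in hair-cell-like and 20610 in supporting-cell-like cells, after cells of the highest Scrublet doublet scores had been removed. The part of any remaining doublets in these levels was not tested. An unnamed cluster with Oc90, an otoconial protein gene, had Id levels nearer those of supporting-cell-like cells. There Id1 stood at 410 CPM (397 to 423) in GFP high, against 374 CPM (364 to 384) in GFP low, and Id3 at 306 and 282 CPM. Supporting-cell-like cells and the unnamed clusters together held most Id1 RNA at day 21, with 33.2% and 35.9% of the GFP high UMIs and 37.9% and 51.1% of those of GFP low.

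Inside the hair-cell-like class, cells of GFP high held less Bmp2 and Smad7 RNA than those of GFP low and more Id1 and Id2 RNA. Of 6 members tested, 2 were higher and 2 lower, where 5.34% of all genes were called, 3.6% higher and 1.74% lower. The median log2 ratio was -0.08 for these members and 0.01 for all genes. The 4 clusters of the class were held in different proportions by the gates, and once both libraries were given GFP low's cluster weights none of the 4 calls stood.

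Id1 stood at 20.6 CPM in GFP high and 7.24 CPM in GFP low, a ratio of 2.85 (2.40 to 3.39). Id2 stood at 22.3 and 9.13 CPM, a ratio of 2.44 (2.10 to 2.86), and Id3, under the minimum, at 8.67 and 2.62 CPM. With equal cluster weights the ratios were 1.05 for Id1 (0.852 to 1.29) and 0.759 for Id2 (0.631 to 0.913), so the Id2 direction turned round. Id1 had a ratio of 4.47 at a clustering resolution of 0.5, and Id2 1.86, no longer called, with a mitochondrial limit of 10%.

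Smad7 stood at 48.5 CPM in GFP high and 109 CPM in GFP low, a ratio of 0.446 (0.423 to 0.471). With equal cluster weights the ratio was 0.689, and without the Kcna10 cluster 0.618, neither of them called. The Bmp2 ratio of 0.120 became 0.563 (0.535 to 0.593) with equal weights and 0.297, from 19.4 and 65.2 CPM, without the Kcna10 cluster. Nog, at 10.9 and 9.42 CPM, and Bmp7, at 40.6 and 51.8 CPM, were not called between the gates.

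Levels also differed between the 4 hair cell clusters inside each gate. The cluster led by Kcna10, a potassium channel gene, held 121 cells of GFP high and 326 of GFP low. Bmp2 stood there at 412 CPM (391 to 432) in GFP high, against 709 CPM (692 to 727) in GFP low, the highest levels of all profiles, and Smad7 at 98.6 and 155 CPM. Bmp2 was among the 25 leading genes of this cluster although it was left out of the clustering. At 3000 UMIs, 48.8% of its cells in GFP high (39.6 to 58.0%) and 75.1% in GFP low (70.0 to 79.7%) had a Bmp2 UMI, against 0.889% and 0.641% of neuron-like cells, given as background. This cluster held 44.9% of all Bmp2 UMIs of GFP high and 77.1% of those of GFP low, in 3.52% and 8.84% of the cells.

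The cluster led by Ocm, the gene of the calcium buffer oncomodulin, held 391 GFP high and 57 GFP low cells. It had the highest Nog of the hair cell clusters, at 27.2 CPM (24.5 to 30.2) in GFP high, against 22.3 CPM (15.2 to 31.7) in GFP low. Bmp7 stood there at 85.7 and 69.1 CPM and Bmp2 at 35.6 and 74.8 CPM. At 3000 UMIs, 7.20% of its cells in GFP high and 9.09% in GFP low had a Nog UMI. Nog intervals of this cluster do not overlap those of the other 3 hair cell clusters within GFP high, where Nog stood between 6.65 and 7.33 CPM. At a clustering resolution of 2, an Ocm-led cluster of 192 GFP high cells stood apart from one led by Smpx, Dynlrb2 and Gng8, of 197. The latter, without Ocm among its 25 leading genes, had Nog at 35.8 CPM from 236 UMIs. The Nog of the Ocm cluster is thus not shown to lie in Ocm-bearing cells.

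The cluster led by Smpx, Xirp2 and Otof, also rich in Cib3, held 859 GFP high and 368 GFP low cells. Id2 stood there at 2.12 CPM (1.57 to 2.80) in GFP high and 3.35 CPM in GFP low, and in GFP high its interval overlapped that of the Kcna10 cluster (1.44 to 5.15). Bmp2 stood there at 31.1 CPM in GFP high (28.9 to 33.5) and 75.7 CPM in GFP low (70.0 to 81.7), a ratio of 0.412 in a cluster where 0.889% of all genes were called. In the Ocm cluster the Bmp2 ratio was 0.476, with 5.73% of genes called. Bmp2 was lower in GFP high in these 2 clusters by the size rule, while in the Kcna10 cluster its intervals did not overlap but its ratio did not reach the limit, with 3.95% of genes called.

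The cluster led by Pvalb and Gpx2 was the richest in Atoh1, at 353 CPM in GFP high and 283 CPM in GFP low, and held 857 and 73 cells. Bmp2 was nearly absent, at 2.30 and 2.99 CPM, and Smad7 low, at 18.2 and 22.1 CPM. The Id genes were at their highest among hair cell clusters: Id1 stood at 40.4 CPM (38.1 to 42.8) in GFP high, against 19.7 CPM (13.6 to 27.7) in GFP low, a ratio of 2.05 (1.45 to 2.99), with 6.89% of all genes called. Id2 stood at 42.1 and 28.1 CPM and Id3 at 16.7 and 11.95 CPM. Nog was lower in GFP high here, at 7.16 CPM against 18.5 CPM in GFP low, a ratio of 0.386 (0.264 to 0.584). The median mitochondrial share of the cluster was 4.19% in GFP high and 0.499% in GFP low, and the dissociation stress list summed to 2575 and 3577 CPM. At a clustering resolution of 2, the cluster led by Gpx2, Pvalb and Cryab had 215 GFP high and 49 GFP low cells. That led by Pvalb, Gpx2 and Otof had 355 and 13. The part of these differences in the ratios was not tested. In GFP low 10 cells held 81.8% of the Id1 UMIs of this cluster. At 3000 UMIs, 9.51% of its GFP high cells (7.62 to 11.7%) had an Id1 UMI, against 0.821% (0.331 to 1.68%) in the Smpx, Xirp2 and Otof cluster of the same library and 5.33% (2.79 to 9.13%) in neuron-like cells.

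**Figure D3:**
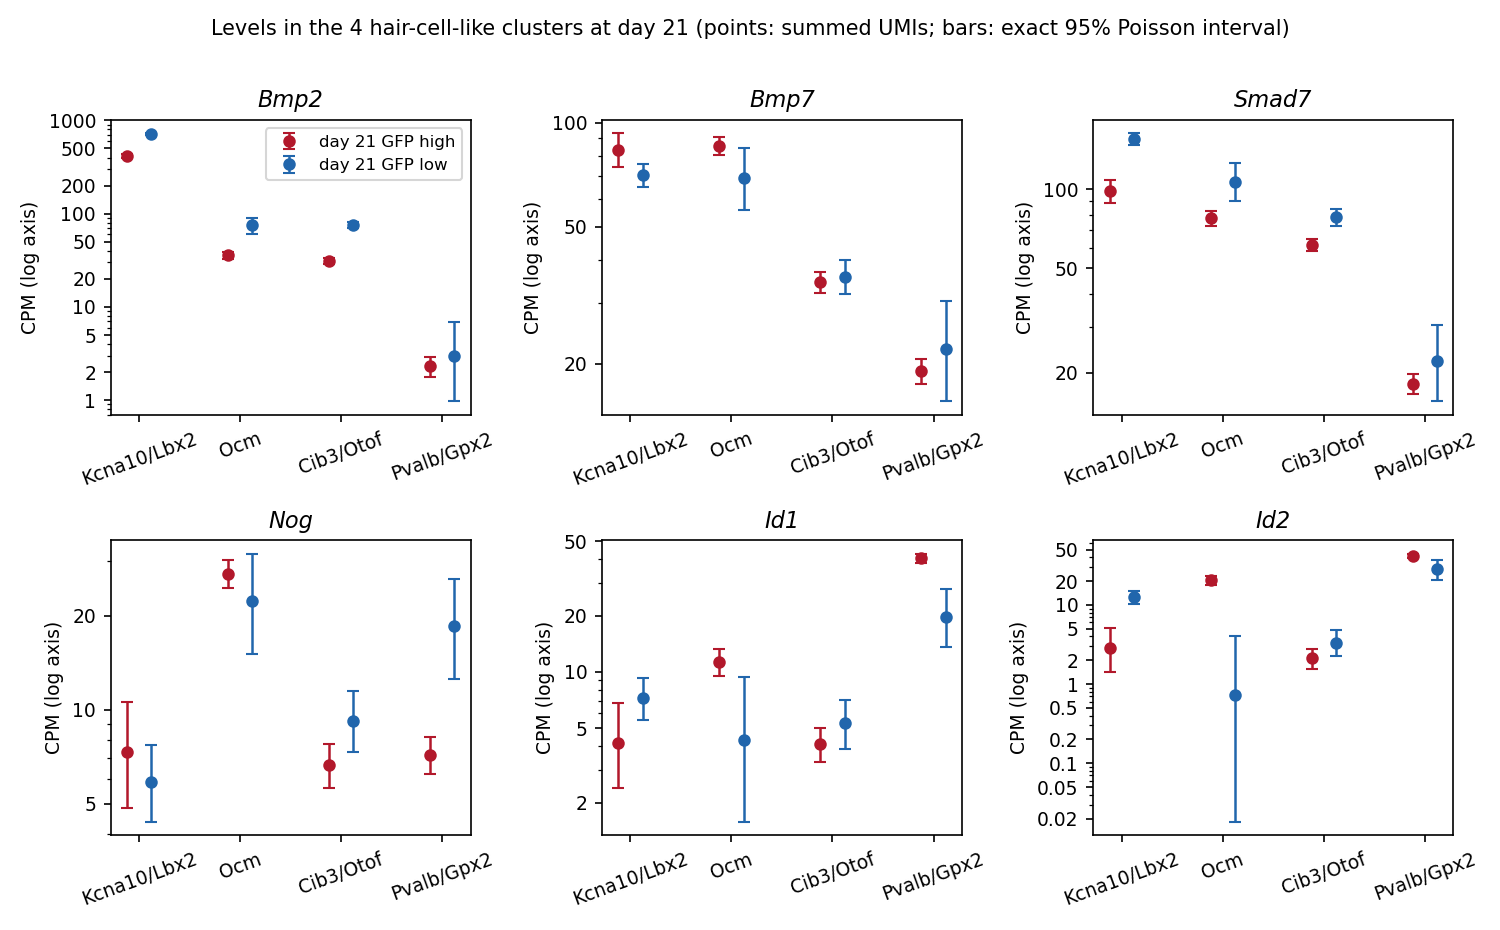
Levels in CPM (log axis) of Bmp2, Bmp7, Smad7, Nog, Id1 and Id2 in the 4 hair cell clusters, GFP high to the left of GFP low, with 95% counting intervals as bars; Cib3/Otof marks the cluster led by Smpx, Xirp2 and Otof. Bmp2 peaks in the Kcna10 cluster (412 CPM in GFP high and 709 CPM in GFP low), Nog in the Ocm cluster, and Id1 in the Pvalb and Gpx2 cluster.

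The order of Id and Smad7 levels across hair cell clusters was followed more finely at a clustering resolution of 2, which split the hair-cell-like cells of GFP high into 8 clusters. Id1 and Id2 were highest where Atoh1 was highest, and Smad7 was lowest there. The cluster led by Gpx2, Pvalb and Cryab had Atoh1 at 475 CPM, Id1 at 58.6 CPM, Id2 at 58.4 CPM and Smad7 at 13.5 CPM. It alone of the 8 also had a raised otic epithelium list, with 6 genes of that list beside 12 hair cell markers. The part of this in its levels was not tested. The cluster led by Pvalb, Gpx2 and Otof had Atoh1 at 412 CPM, Id1 at 43.8 CPM, Id2 at 48.5 CPM and Smad7 at 13.6 CPM. In the middle, a cluster led by Otof, Pvalb and Acbd7 had Atoh1 at 174 CPM with Id1 at 28.4 CPM and Smad7 at 29.5 CPM. A cluster led by Smpx, Dynlrb2 and Gng8 had Atoh1 at 204 CPM with Id1 at 17.9 CPM, Smad7 at 57.3 CPM and Nog at 35.8 CPM. The remaining 4 clusters had Atoh1 between 16.2 and 24.5 CPM, Id1 between 1.93 and 7.84 CPM and Smad7 between 53.2 and 98.0 CPM. These clusters share 1 library, and their order is a description of it.

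**Figure D4:**
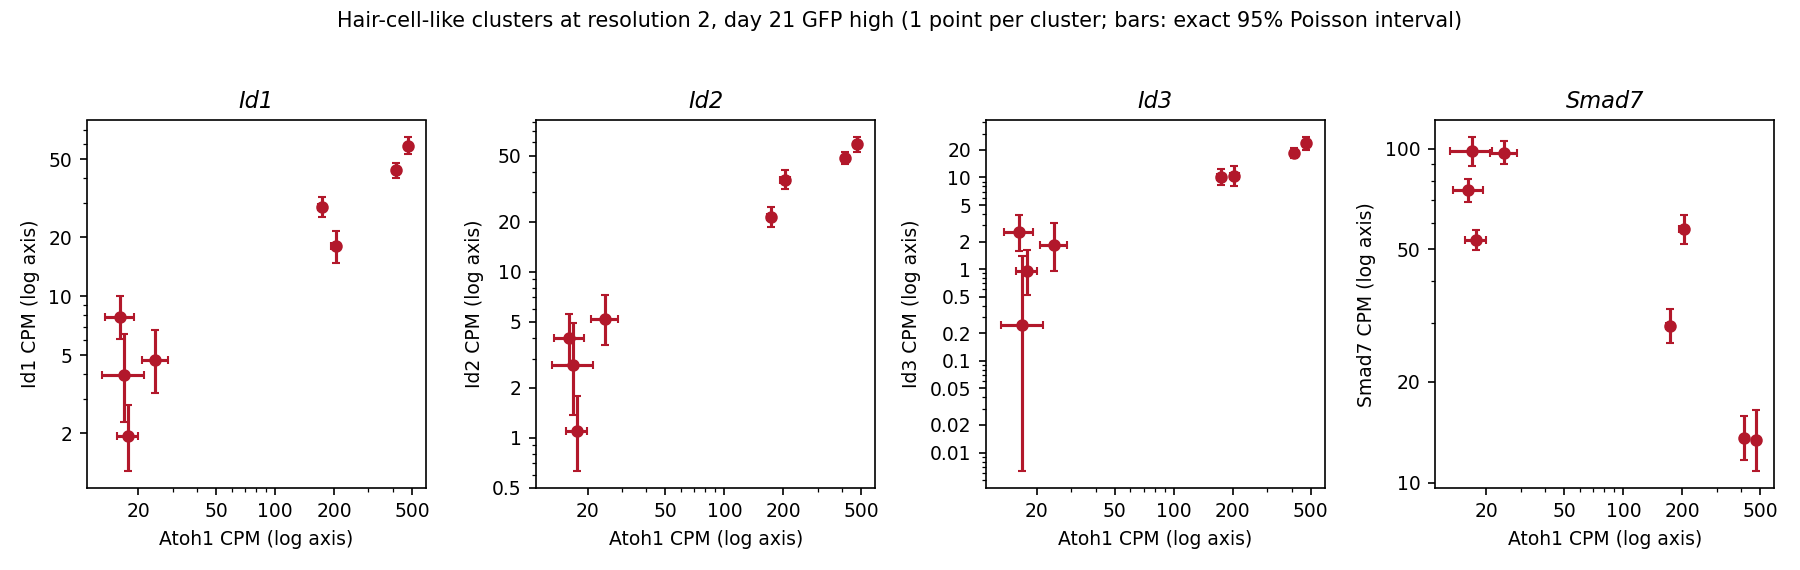
Level of Atoh1 (x axis, CPM, log scale) against the levels of Id1, Id2, Id3 and Smad7 (y axes, CPM, log scale) in the 8 hair cell clusters of GFP high at resolution 2, 1 point per cluster. The clusters with Atoh1 at 412 and 475 CPM have the highest Id levels and the lowest Smad7, at 13.6 and 13.5 CPM.

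The Pvalb and Gpx2 cluster was also the only hair cell cluster with 50 cells or more at both earlier days, 73 at day 20 and 129 at day 16. There the Id genes were lower at day 20 than at day 16. Id1 stood at 26.1 CPM (18.1 to 36.2) at day 20 and 105 CPM (96.0 to 115) at day 16, a ratio of 0.247 (0.170 to 0.349). Id2 stood at 25.3 and 102 CPM, a ratio of 0.249, and Id3 at 26.8 and 80.2 CPM, a ratio of 0.334. Bmp4 was lower as well, from 1 UMI at day 20 and 57 at day 16, a ratio of 0.0575 (0.00143 to 0.334). Nog was higher at day 20, at 13.4 CPM against 4.31 CPM, a ratio of 3.11 (1.54 to 6.25). In this cluster 15.8% of all genes were called between the days, and its median depth was 18122 UMIs at day 20 and 33360 at day 16. At 3000 UMIs, 2.82% of its cells had an Id1 UMI at day 20 and 21.4% at day 16, beside 1.57% and 2.58% of neuron-like cells.

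Over the whole hair-cell-like class, Id1 levels were 88.0 CPM (day 16), 18.8 CPM (day 20), 20.6 CPM (GFP high) and 7.24 CPM (GFP low). Id2 and Id3 were likewise highest at day 16, at 91.6 and 66.0 CPM. Bmp2 stood at 3.57 CPM (day 16), 20.0 CPM (day 20), 41.1 CPM (GFP high) and 342 CPM (GFP low). The libraries held the clusters of this class in different proportions: the Pvalb and Gpx2 cluster had 129 (day 16), 73 (day 20), 857 (GFP high) and 73 (GFP low) of its cells, and the Kcna10 cluster had 2, 8, 121 and 326. The day 20 and day 16 values of Bmp2 rest on 51 and 22 UMIs, of which 10 cells held 98.0% and 100%.

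In supporting-cell-like cells no member was called between the gates. Of 8 members tested, 0 were higher and 0 lower, where 1.56% of all genes were called, 0.982% higher and 0.583% lower. With so few genes called, a count of 0 among 8 says little about the members. The median log2 ratio was 0.25 for the members and 0.04 for all genes. Id1 stood at 665 CPM in GFP high and 518 CPM in GFP low, a ratio of 1.28 (1.23 to 1.34), Id2 had a ratio of 1.19 (1.12 to 1.26) and Id3 one of 1.63 (1.52 to 1.74). Their intervals exclude 1 while the ratios stay under 2. Bmp2 had the lowest ratio, 0.579 (0.425 to 0.780), and averaged over cells instead of summed it was 0.426 and called lower.

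Among mesenchyme-like cells, which carry genes of collagen-rich connective tissue, those of day 20 held less Bmp7, Id1 and Id3 RNA than those of day 16. Of 7 members tested, 0 were higher and 3 lower, where 12.8% of all genes were called, 3.92% higher and 8.85% lower. The median log2 ratio was -0.64 for the members and -0.20 for all genes. The days held different clusters of this class: the cluster led by Dcn and Lum had 1568 cells at day 20 and 12 at day 16. That led by Dcn and Mgp had 23 and 311, that led by Col1a1, Col3a1 and Bgn 148 and 306, and that led by Col1a1, Col3a1 and Col1a2, of low depth, 308 and 236.

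Bmp7 stood at 4.39 CPM (3.46 to 5.49) at day 20 and 31.7 CPM (28.5 to 35.1) at day 16, a ratio of 0.139 (0.107 to 0.178). Id1 stood at 8.26 CPM (6.97 to 9.72) and 46.3 CPM (42.4 to 50.5), a ratio of 0.178 (0.147 to 0.215). Id3 stood at 62.6 and 172 CPM, a ratio of 0.365 (0.338 to 0.393). Without the Dcn and Lum cluster, an alternative added after seeing the data, Id3 was level at 175 and 173 CPM, a ratio of 1.015, and Bmp7 had a ratio of 0.652 that was not called. Id1, at 20.5 and 46.3 CPM, was still lower with a ratio of 0.444, Id2 was then also lower, at 0.458, and Bmper was higher, at 14.3 and 2.89 CPM. The clusters left still differed in proportion between the days, with 23 and 311 cells in the Dcn and Mgp cluster. Bmper rests here on 34 UMIs at day 20 and 32 at day 16, most of those of day 20 in the low-depth cluster. The dissociation stress list summed to 20260 CPM at day 20 and 12730 CPM at day 16, and the median depth was 8432 and 12580 UMIs. Their part in the result was not tested. At 3000 UMIs, 1.95% of mesenchyme-like cells had an Id1 UMI at day 20 and 7.62% at day 16, beside 1.57% and 2.58% of neuron-like cells.

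Bmp4 stood in this class at 116 CPM (day 16), 74.95 CPM (day 20), 75.7 CPM (GFP high) and 60.5 CPM (GFP low). Mesenchyme-like cells held 84.6% of all Bmp4 UMIs at day 20, in 47.3% of the cells, and 60.7% at day 16. At 3000 UMIs 18.8% of them had a Bmp4 UMI at day 20 and 24.0% at day 16, against 0.870% and 1.08% of neuron-like cells, given as background. In the cluster led by Col1a1, Col3a1 and Bgn Bmp4 was lower at day 20, at 49.3 CPM against 148 CPM, a ratio of 0.333 (0.253 to 0.432), with 16% of all genes called. Bmp7 was lower there too, at 19.6 and 41.2 CPM, while Id3 was at 311 and 213 CPM and was not called.

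Bmper was largely a mesenchymal gene at day 20, with 88.6% of its UMIs in this class. It stood at 8.38 CPM (7.08 to 9.85) at day 20 and 2.93 CPM (2.02 to 4.12) at day 16, a ratio of 2.86 (1.95 to 4.30) that lay under the 10 CPM minimum. In the low-depth collagen cluster it stood at 37.5 CPM (25.5 to 53.2) at day 20 and 2.66 CPM at day 16. That ratio of 14.1 (3.59 to 122) rests on 31 and 2 UMIs, in a cluster where 11.5% of all genes were called. Smad6, at 10.9 and 12.3 CPM, and Smad7, at 40.3 and 60.9 CPM, were not called between the days, and 83.8% of the Smad6 UMIs of day 20 lay in this class.

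The mesenchyme-like cluster led by Ptgds, Nid2 and Otor stood apart. It had 46 cells in GFP low and 78 at day 16. Id3 stood there at 766 CPM (715 to 820) in GFP low and 693 CPM (646 to 742) at day 16, and Bmp7 at 272 and 132 CPM. Bmp2 stood at 158 CPM in GFP low and 19.1 CPM at day 16. In the Dcn and Mgp cluster of day 16, by contrast, Id2 stood at 449 CPM with Id3 at 30.7 CPM and Bmp7 at 1.29 CPM.

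**Figure D5:**
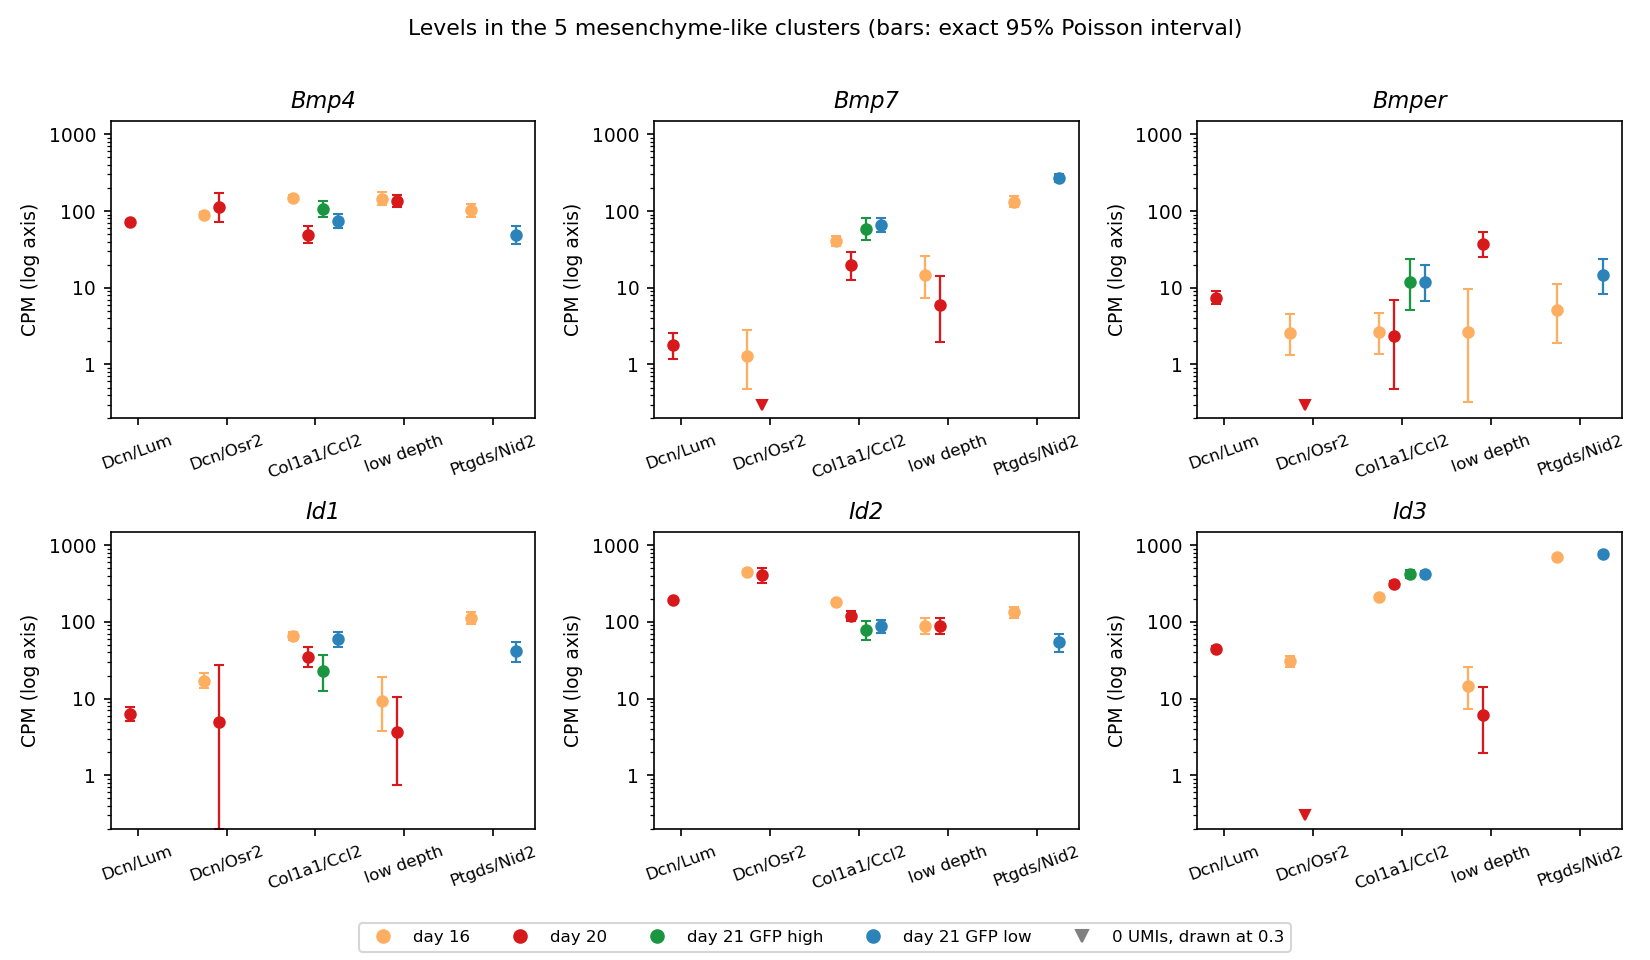
Levels in CPM (log axis, a level of 0 drawn at 0.3) of Bmp4, Bmp7, Bmper, Id1, Id2 and Id3 in the 5 mesenchyme-like clusters by library, with 95% counting intervals as bars; Dcn/Osr2 marks the Dcn and Mgp cluster and Col1a1/Ccl2 that led by Col1a1, Col3a1 and Bgn. Id3 and Bmp7 are highest in the Ptgds cluster, Id2 in the Dcn and Mgp cluster of day 16 (449 CPM) and Bmper in the low-depth collagen cluster of day 20 (37.5 CPM).

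Ccer2-rich cells had little of most members. The larger of their 2 clusters, of 1360 cells, also carried Merkel cell and hair cell markers. The smaller, of 103 cells with 87 from day 16, carried Merkel cell and epidermis markers. Of 4 members tested between the gates, 1 was lower and 0 higher, where 8.02% of all genes were called, 5.37% higher and 2.65% lower. The median log2 ratio was -0.62 for the members and 0.06 for all genes. Bmp7 was the lower one, at 10.2 CPM in 64 cells of GFP high and 20.8 CPM in 143 cells of GFP low, a ratio of 0.490 (0.243 to 0.923) from 13 and 46 UMIs. It was not called when CPM was averaged over cells (0.563), with 4000 variable genes (0.616) or with cells of 500 genes or more (0.557). Id1 stood between 1.12 and 6.77 CPM over the 4 libraries, and Atoh1 stood at 646 CPM at day 16.

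Neuron-like cells had Id2 levels of 197 CPM (day 16), 270 CPM (day 20), 307 CPM (GFP high) and 180 CPM (GFP low), with Id1 and Id3 at 31.5 CPM or less. The highest Id2 of all profiles was in the neuron-like cluster led by Calb1, Car8 and Pcp2, at 1036 CPM at day 20 and 373 CPM at day 16, a ratio of 2.78 (2.61 to 2.97), with 13.3% of all genes called. Nog was also higher there at day 20, at 15.3 CPM against 2.39 CPM, from 24 and 14 UMIs. At a clustering resolution of 2, neuron-like clusters held the days in different proportions: one again led by Calb1, Car8 and Pcp2 had 49 cells at day 20 and 7 at day 16, and one led by Rtn1, Stmn4 and Islr2, which also had Lhx1 and Fgf3 among its leading genes, had 46 and 355. Epidermis-like cells of day 20 held less Bmp2 and Bmp7 RNA and more Id1 and Id3 RNA than those of day 16. Their Bmp2 stood at 15.2 CPM at day 20 and 48.7 CPM at day 16 and Bmp7 at 26.4 and 83.6 CPM. Their Id1 stood at 177 CPM at day 20 and 68.2 CPM at day 16, a ratio of 2.60 (2.24 to 3.01), and Id3 at 488 and 208 CPM, in a cluster where 21.9% of all genes were called. Bmp4, at 34.5 and 68.4 CPM, and Id2, at 83.8 and 90.7 CPM, were not called. The dissociation stress list summed there to 6667 CPM at day 20 and 2891 CPM at day 16, at median depths of 13200 and 21820 UMIs, and the part of these in the result was not tested. The highest Nog of all profiles, 54.1 CPM in GFP low, lay in an unnamed cluster led by crystallin genes, which stood at 25.6 CPM in GFP high.

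Summed over all cells, fewer members were called between libraries than between hair-cell-like and supporting-cell-like cells of 1 library. The same held for all genes: 14.7% and 11.8% were called between libraries, against 33% and 37.2% between those classes. The lower count is therefore not particular to the members. Between the gates 1 of 7 tested members was called, Bmp2, at 32.6 CPM (31.6 to 33.7) in GFP high, against 87.0 CPM (85.2 to 89.0) in GFP low, a ratio of 0.375 (0.360 to 0.390). Over all genes 14.7% were called, 6.95% higher and 7.74% lower, and the median log2 ratio was -0.27 for the members and -0.04 for all genes. Without the Kcna10 cluster Bmp2 stood at 18.6 and 22.02 CPM, a ratio of 0.846, and no member was called. Between day 20 and day 16, 1 of 6 members was called, Bmp7, at 9.77 and 24.6 CPM, a ratio of 0.398 (0.355 to 0.444), where 11.8% of all genes were called, 5.03% higher and 6.79% lower. The median log2 ratio was -0.35 for the members and -0.19 for all genes.

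The other 57 genes of the BMP list, all measured, give the setting. Between hair-cell-like and supporting-cell-like cells, 6 of 31 tested were higher and 12 lower in GFP high, and 5 higher and 14 lower in GFP low, beside 33% and 37.2% of all genes called in either direction. Kcp, which encodes a secreted protein that in mouse kidney enhances BMP signalling, stood at 427 CPM in hair-cell-like and 12.5 CPM in supporting-cell-like cells of GFP high, and at 420 and 4.96 CPM in GFP low. Kcp was highest in the Smpx, Xirp2 and Otof cluster, at 865 CPM in GFP high and 747 CPM in GFP low. Bambi, a pseudoreceptor that blocks BMP and TGF-beta receptors, stood at 2.76 and 46.5 CPM in GFP high and at 3.45 and 59.9 CPM in GFP low. The ligand Bmp3 was higher in hair-cell-like cells, with ratios of 5.39 and 5.22, and Bmp6 was lower, with ratios of 0.116 and 0.101. The homeobox targets Dlx3 and Dlx5 were lower, with ratios of 0.113 and 0.138 in GFP high and 0.0431 and 0.106 in GFP low.

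Within hair-cell-like cells 3 of 24 other genes were higher in GFP high and 0 lower, among them the type I receptor Bmpr1b, at 19.5 CPM against 6.65 CPM in GFP low, beside 3.6% of all genes higher and 1.74% lower. In supporting-cell-like cells 1 of 29 was higher, Kcp, and 1 lower, Fstl3, where 1.56% of all genes were called. In mesenchyme-like cells 7 of 37 were higher at day 20 and 2 lower, beside 3.92% and 8.85% of all genes. The homeobox target Msx1 stood at 94.6 CPM at day 20 and 15.2 CPM at day 16, the antagonist Nbl1 at 322 and 156 CPM, and Id4, another Id gene, at 15.7 and 61.0 CPM. Of 21 tested in Ccer2-rich cells 1 was higher, Smoc2, where 5.37% of all genes were. Over all cells 2 of 31 were higher and 3 lower between the gates, beside 6.95% and 7.74% of all genes, and 7 of 32 were higher and 1 lower between the days, beside 5.03% and 6.79%.

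Across the 58 profiles the genes most like each member in level, by Pearson's r of log2(CPM + 5) among 11164 genes, were as follows, as a description of profiles that share libraries and depth. Id1 was most like Id3 (0.875), Notch1 (0.871) and Casp8 (0.866), and Id3 was most like Pon2 (0.880), Id1 and S100a11 (0.858). Bmp4 was most like Col5a1 (0.917), Ppic (0.913) and Fgfr1 (0.910). Bmp2 was most like Sh2d4a (0.847), Car12 (0.844) and Ephx1 (0.814), Bmp7 most like Etv6 (0.818) and Smad7 most like Arnt (0.8003). Id2 was most like Sh3bgrl (0.844), and Nog had no close match, with Fam229b first at 0.559. Among the members themselves Bmp2 and Bmp7 had r = 0.693, Bmp2 and Smad7 0.642, Id1 and Id2 0.426, and Bmp2 and Id2 -0.486. Bmper and Smad6 reached 20 CPM in too few profiles to be matched.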

How the data were processed

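Single cells of dissociated, GFP-sorted organoids were counted in 4 droplet libraries, per the labels' protocols, although a label also speaks of nuclei. The values the authors deposited are raw UMI counts, not normalised, written by Cell Ranger 6.1.2 per the file headers. Per the submitters' processing notes, the tools were Cell Ranger 6.1.0 and Seurat 4.0.6 and the genome build mm10. The annotation the authors used is not given in the sources used here. Coordinates are from GENCODE M21 on GRCm38, which held 32158 of 32289 identifiers.

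Barcodes with fewer than 1000 genes or more than 15% mitochondrial UMIs were left out, and the highest Scrublet scores were removed at 0.8% per 1000 barcodes (120, 205, 109 and 137 cells, in time order with GFP high before GFP low). Counts per cell were scaled to 10000 and logged. The cells of all libraries were clustered together from 2000 variable genes without the 67 BMP list genes, with values limited at 10, 30 principal components, 20 neighbours and Leiden resolution 1. A cluster was named where at least 50% of a marker list, and at least 3 genes, stood at 4 times the median cluster or more after 5 CPM was added. Lists competed by their genes among the 25 leading genes, and clusters led by crystallins stayed unnamed. This rule was chosen with the clusters in view, so shares can differ from the study's own.

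Counts were summed per class and library and scaled as CPM. Levels carry exact Poisson intervals, ratios exact conditional binomial intervals and shares exact Clopper-Pearson intervals. Log2 ratios use CPM + 1, and 3000 UMIs per cell were drawn for thinned shares. With 1 library per group no p-values were computed. The ratio step was tested on simulated data for GFP high over GFP low in all cells: 199 of 200 genes changed 4-fold and 0 of 9859 unchanged genes were called. Both libraries were drawn as Poisson counts around the GFP low sums, so the simulation held counting error alone. It checks the calculation and says nothing about variation between libraries or cells. The members and lists were chosen with earlier results of these data known. All 10 members were measured in every comparison, but the text does not name all of them for each. The other BMP list genes named are a selection of those called. Promoters were found for 5 of the 10 members. Alternatives were other cell filters, resolutions and gene sets, kept doublets, TMM scaling, per-cell means, no CPM minimum, equal cluster weights and clusters left out. Software was Python 3.11.15, Scanpy 1.11.5, leidenalg 0.10.2, scipy 1.17.1, pandas 2.3.3 and matplotlib 3.10.9, with edgeR 4.0.16 in R 4.3.3 for TMM factors only.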

Additional observations from a re-analysis of the deposited data

Results flagged for a closer look

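Id2 went opposite ways between the gates in 2 hair cell clusters. In the Ocm cluster it stood at 20.4 CPM in GFP high and 0.719 CPM in GFP low, a ratio of 28.4 (5.05 to 1126) that rests on 270 and 1 UMIs. In the Kcna10 cluster it stood at 2.88 CPM in GFP high and 12.5 CPM in GFP low, a ratio of 0.230 (0.111 to 0.427) from 11 and 111 UMIs. The difference between the clusters was not tested, since each gate is 1 library. In the Ocm cluster 10 cells held 64.4% of the Id2 UMIs of GFP high, and in the Kcna10 cluster 10 cells held 100% of those of GFP high and 78.4% of those of GFP low. With 11 UMIs in GFP high, the share of 10 cells in the Kcna10 cluster is high whatever the spread, so it says little.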

How the results depend on the processing

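Of 246 values that the alternatives gave for the 24 called member ratios, 14 lost the call and 2 reversed. The 246 include those with no CPM minimum, which leaves a called ratio and its interval as they were and so could not lose a call. Between the gates over all cells, 0 members were called without the Kcna10 cluster in place of 1. In hair-cell-like cells 0 were called, in place of 4, once both libraries had GFP low's cluster weights, and the Id2 ratio reversed to 0.759. Between the days over all cells 2 were called with no CPM minimum and 2 with per-cell means in place of 1. Per-cell means gave 1 in supporting-cell-like cells in place of 0 and 5 in mesenchyme-like cells in place of 3. In mesenchyme-like cells the Id3 ratio was 1.015 without the Dcn and Lum cluster. In Ccer2-rich cells 2 were called with TMM scaling, 2 with no CPM minimum and 0 with cells of 500 genes or more in place of 1. TMM scaling multiplied ratios by 1.137 between the days over all cells and by 1.231 in mesenchyme-like cells. In GFP high, Bmp2 in hair-cell-like over supporting-cell-like cells was 2.27 with 4000 variable genes, 2.59 with a mitochondrial limit of 10% and 2.76 with doublets kept. At resolution 0.5 no class of 20 supporting-cell-like cells formed, so those comparisons gave no value. Of 290 levels 163 reached 10 CPM, and 122 did without the 10 cells richest in the gene. Bmper was under the 10 CPM minimum in all 8 comparisons, so its ratios were not called at this depth. No paired analysis was possible because each group is 1 library and no test was run.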
